A study of Macrobrachium rosenbergii with 9 samples.

Results

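Of 21071 transcripts measured in adult Macrobrachium rosenbergii, the giant freshwater prawn, 170 (0.807%) stayed within a 2-fold range across androgenic gland, ovary and testis at a moderate level. They were chosen on the measured counts of all 9 libraries. Each count was divided by a median-of-ratios size factor of its library, which gives the normalized count used below. A transcript was kept when its normalized count was at least 200 in all 9 libraries, its highest value was at most 2 times its lowest, and its lowest CPM (its count scaled to the library total) was under 200. The last condition removed none, since all 170 transcripts that met the other conditions also met it. Without the androgenic gland libraries 158 of the 170 met it, since the rest had a CPM of 200 or more in every ovary and testis library. Because these values chose the transcripts, their levels and their evenness are given as a description.

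The 9 RNA-seq libraries came from adults of the strain labelled CMr1, 3 of androgenic gland and 3 of testis from males, and 3 of ovary from females. No group carried a treatment or genetic change in the labels. Total counts ran from 10409895 to 11177153 in androgenic gland, from 9924471 to 11231573 in ovary and from 7142794 to 9868078 in testis. No label ties a library to its own animal. The p-values therefore measure how far these libraries spread, which may be technical.

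The androgenic gland is the male endocrine organ of decapod crustaceans, attached to the sperm duct, whose insulin-like hormone drives male differentiation. The testis makes sperm, and the ovary makes oocytes loaded with yolk and maternal RNA. Transcripts at an even level across such different organs are often those of basic cell functions, and they are the usual candidates for reference transcripts in quantitative PCR. The deposited table names no gene, and 0 of its IDs were found among the 31758 genes of the reference table. The members are therefore named by ID, with no role given, and the tissues were not checked against marker genes here. In bulk tissue, fewer cells of a type and less RNA per cell cannot be told apart.

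Of the 11287 transcripts with a count above 0 in all 9 libraries, most were below the level minimum in at least 1. The minimum was met by 3355 transcripts in the androgenic gland, 4360 in ovary and 3311 in testis, and by 1725 in all 9 libraries. Of these 1725, 170 (9.86%) were within the 2-fold range and 1555 were past it. The members' ratio of highest to lowest library ran from 1.253 to 1.999 with a median of 1.76, and 21 members were at 1.5 or below. The 1555 others had a median ratio of 3.98, and 159 of them were above 10. Just inside the limit stood transcript_HQ_Female_transcript20911/f4p0/1057 at a ratio of 1.9987 and transcript_HQ_Female_transcript4/f2p0/5274 at 1.9969. Just outside it stood transcript_HQ_Female_transcript390/f2p0/2998 at 2.0011 and transcript_HQ_Male_transcript2160/f3p0/2235 at 2.0055. Members crowd towards the limit, with 37 of 170 at a ratio above 1.9, so the edge of the group is a cut through a continuous range.

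**Figure D1:**
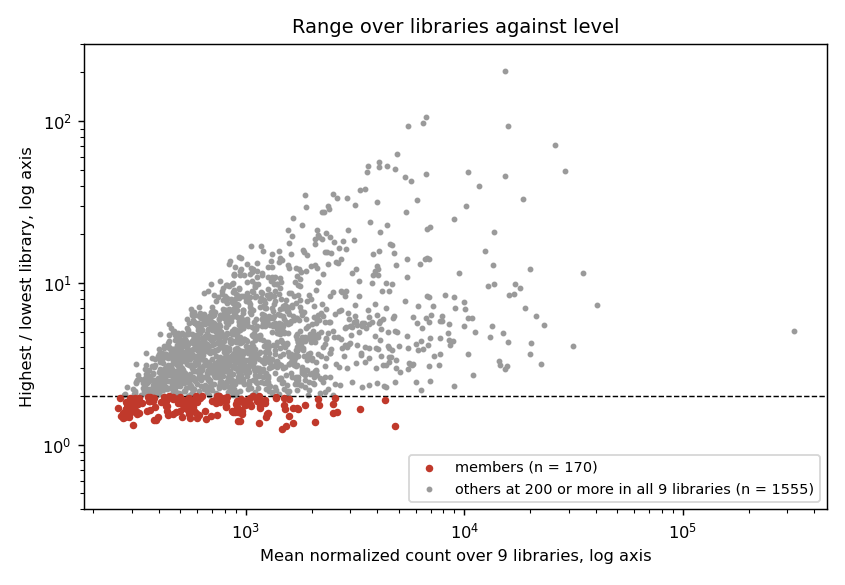
Ratio of the highest to the lowest library against the mean normalized count over 9 libraries, both on log axes, for the 1725 transcripts at 200 or more in every library; each point is a transcript, members in red and the 1555 others in grey, and the dashed line is the limit of 2. The members lie between ratios of 1.253 and 1.999 with no gap to the others above the line.

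At the median, the members were below the other widely present transcripts in level and above the table as a whole. The second is set by the level minimum of 200, and the first follows in part from the limit on the ratio. Their mean normalized count over the 9 libraries ran from 259.9 to 4830 with a median of 591.3, against a median of 947.6 for the 1555 others and 93.1 for all tested transcripts. By band, 47 members had a mean under 400, 58 from 400 to 800, 50 from 800 to 1600 and 15 above 1600. Members made up 40.2% of the transcripts at the level minimum with a mean under 400, 9.70% and 8.88% in the middle bands and 3.36% above 1600. A mean under 400 with no library under 200 leaves little room for a wide range, so the high share in the lowest band is partly built into the rule. Per kilobase of transcript the members' mean normalized count ran from 69.5 to 2484, with a median of 268.2.

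The most even member was transcript_HQ_Female_transcript2859/f25p0/2554, 2554 bases long. Its normalized counts were 1518, 1641 and 1523 in the androgenic gland, 1385, 1310 and 1369 in ovary, and 1448, 1449 and 1467 in testis. Within its ratio of 1.25 the libraries of the tissues did not overlap. At their nearest, androgenic gland and testis stood at 1518 and 1467, so no order of the tissues is read from this. The next most even, transcript_HQ_Male_transcript534/f5p0/2931, was also the member with the highest minimum. It stood at 5453, 4827 and 5593 in the androgenic gland, 4433, 4910 and 4306 in ovary, and 4971, 4706 and 4274 in testis. Here the tissues overlapped, and the highest and lowest libraries were 1.31-fold apart.

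At the low end, transcript_HQ_Male_transcript3271/f4p0/2043 had the smallest minimum, with 235.7, 201.2 and 216.5 in the androgenic gland, 322.4, 317.6 and 308.9 in ovary, and 288.3, 323.5 and 332.9 in testis. All of its androgenic gland libraries were below all ovary and testis libraries. The second smallest minimum was 202.4, in ovary 3, for transcript_HQ_Female_transcript3084/f3p0/2542, which was highest in testis 1 at 391.3. Of the transcripts within the 2-fold range that missed the level minimum, the nearest were transcript_HQ_Male_transcript4241/f6p0/1826 at 196.1 and transcript_HQ_Female_transcript1545/f3p0/2903 at 195.7 in their lowest library.

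Per kilobase, transcript_HQ_Female_transcript19028/f286p0/1026 led the members with a mean normalized count of 2484. Its values were 2022, 1953 and 2055 in the androgenic gland, 2925, 3614 and 2956 in ovary, and 2562, 1858 and 3015 in testis. Androgenic gland was steady and below all ovary libraries, while testis spread from the lowest to the second highest value of the 9. The second, transcript_HQ_Male_transcript3990/f24p0/1864, had 2333 per kilobase, and the lowest per kilobase were transcript_HQ_Female_transcript37/f2p0/4396 at 69.5 and transcript_HQ_Male_transcript106/f4p0/4271 at 74.1. For the 4395-base transcript_HQ_Female_transcript37/f2p0/4396 the normalized counts were 258.5, 324.1 and 342.4 in the androgenic gland, 321.0, 338.8 and 281.9 in ovary, and 316.3, 263.5 and 304.2 in testis. All its tissues overlapped, and its coefficient of variation (CV, SD over mean) was 10.2% across the 9 libraries.

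**Figure D2:**
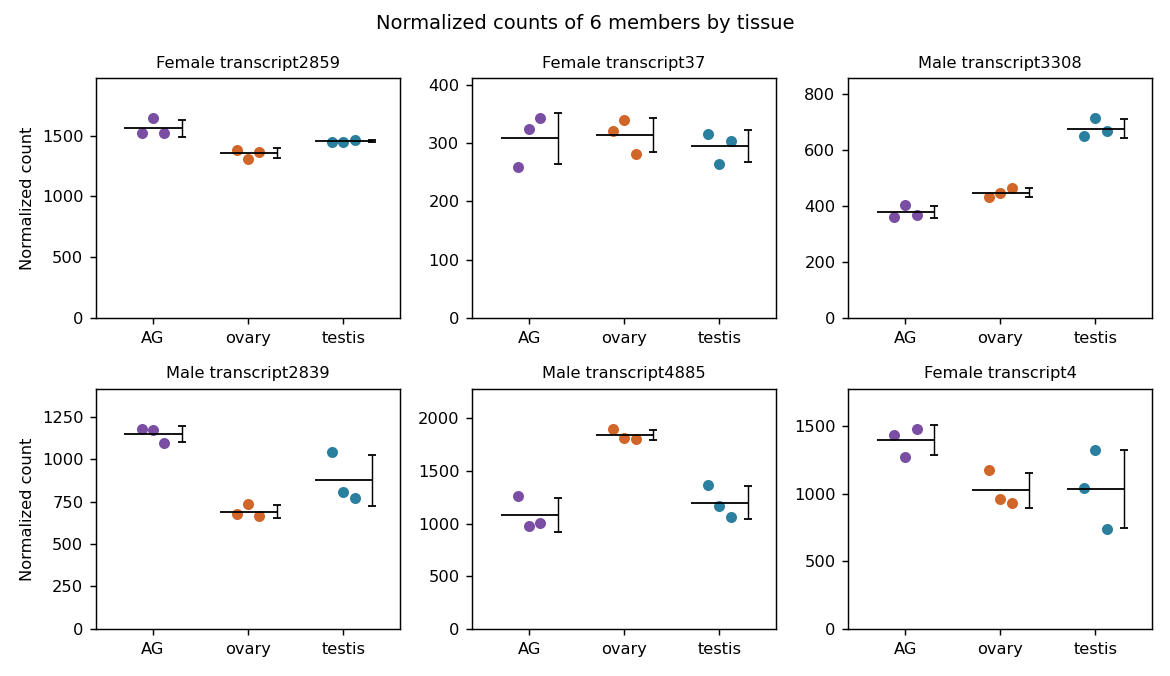
Normalized counts (linear axes from 0) of 6 members in androgenic gland (AG), ovary and testis; points are libraries 1 to 3 from left to right, the horizontal line is the tissue mean and the bar to its right is the SD (n = 3). Female transcript37 shows overlapping tissues, Male transcript3308 is highest in testis, Male transcript2839 in androgenic gland and Male transcript4885 in ovary.

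Spread was larger than counting error for the members. The lowest count behind a member was 77, in androgenic gland 2, where counting alone gives a CV of 11.4%. Over the 9 libraries counting error amounted to a CV of 1.52% to 6.77% per member, while the observed CV ran from 6.73% to 27.4% with a median of 19.0%. The observed CV was 4.27 times the counting CV at the median and at least 1.67 times it in each member. Counting error here assumes independent reads, which PCR copies are not.

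The spread of the tissue means was similar in size to the spread of single libraries within a tissue. A mean of 3 libraries varies less than 1 library, so similar values do not mean that tissues differed no more than libraries would make them. The SD of the 3 tissue means on the log2 scale had a median of 0.21 over members, and the pooled SD within tissues a median of 0.19. The first exceeded the second in 100 of 170 members (58.8%), against 1385 of the 1555 others (89.1%), whose medians were 0.73 and 0.31. The rule bounds both quantities in members, so this comparison describes the group and tests nothing. Within a tissue, the median ratio of the highest to the lowest library was 1.29 in the androgenic gland, 1.16 in ovary and 1.31 in testis, so the ovary libraries were the most alike.

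In normalized counts no tissue led the group. The scaling centres the libraries and the rule keeps a narrow range on that scale, so this is partly built in. As CPM, the members' median was lower in androgenic gland than in ovary and testis, as given below. The highest tissue mean was in androgenic gland for 52 members, in ovary for 60 and in testis for 58. The lowest was in androgenic gland for 66, in ovary for 50 and in testis for 54. Each of the 6 possible orders of the tissues held between 22 and 36 members. Among the 1555 others the highest tissue mean was in androgenic gland for 755, in ovary for 429 and in testis for 371. By library, members were lowest most often in androgenic gland 3 (29) and highest most often in androgenic gland 2 (28), and least often highest in androgenic gland 3 (11).

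The evenness is relative to the median-of-ratios scaling and not to the total of a library. Size factors were 0.635, 0.383 and 0.684 in androgenic gland 1 to 3, 1.51, 1.63 and 1.47 in ovary 1 to 3, and 1.15, 1.27 and 1.15 in testis 1 to 3. They rest on the 11287 transcripts with a count in all 9 libraries. The members' median normalized count was 598.6 ± 54.7 in the androgenic gland, 587.6 ± 0.982 in ovary and 626.3 ± 18.4 in testis (SD, n = 3 each). As CPM, the same median was 30.8 ± 7.73 in the androgenic gland, 86.7 ± 2.66 in ovary and 87.3 ± 9.58 in testis. The gland thus held these transcripts at about the same normalized level but at less than 0.4 times the CPM, with ratios of 0.356 to ovary and 0.353 to testis.

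The members' share of all counts shows the same. Of all counts they took 0.814%, 0.516% and 0.803% in androgenic gland 1 to 3, 2.13%, 2.09% and 2.06% in ovary 1 to 3, and 1.87%, 1.84% and 2.20% in testis 1 to 3. The 95% Wilson intervals of these shares have half-widths of 0.0108 percentage points or less, for counting error only. The share was lowest in androgenic gland 2, whose 10 most abundant transcripts took 43.5% of its counts, against 34.3% and 32.4% in androgenic gland 1 and 3, 7.38% to 8.78% in ovary and 13.9% to 23.4% in testis. The part of these abundant transcripts in the low share was not tested. Scaled to library size alone, the members' ratio of highest to lowest library had a median of 4.84 and ran from 2.82 to 8.41, so none would be within the limit. The same rule under that scaling kept 60 transcripts, 0 of them members, and in normalized counts those 60 had a median log2 ratio of 1.52 in androgenic gland over testis and 1.61 in androgenic gland over ovary.

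**Figure D3:**
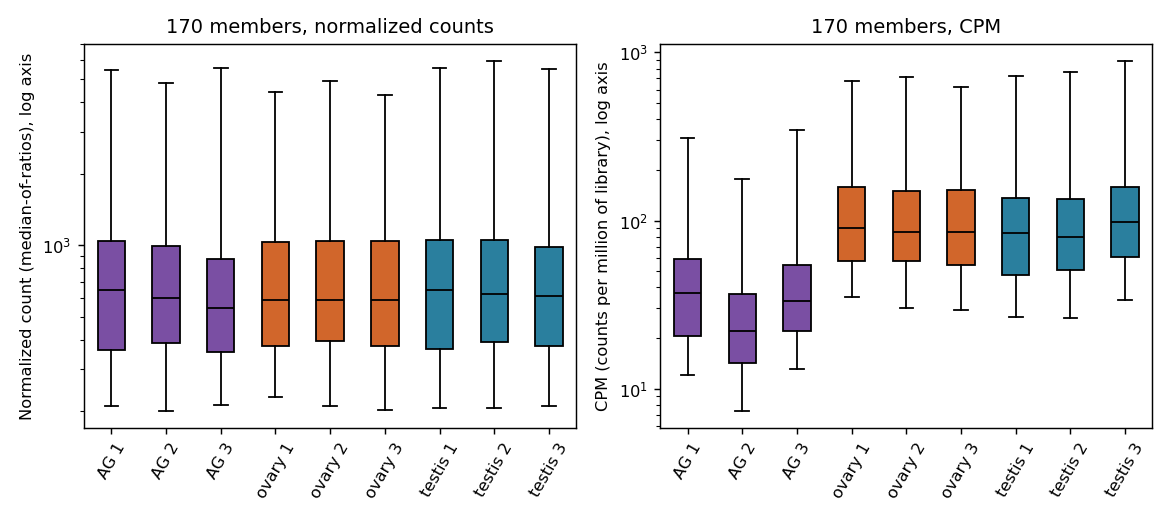
The 170 members in each library as normalized counts (left) and CPM (right), on log axes; boxes span the quartiles with the median as a line, and whiskers reach the lowest and highest member. Medians lie between 542.1 and 651.2 normalized counts in all 9 libraries, while the CPM medians are 22.1 to 37.0 in androgenic gland (AG), 84.9 to 89.7 in ovary and 79.8 to 98.1 in testis.

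How far the evenness extends to libraries that did not choose the transcripts was read by holding out each library in turn. The rule was applied to the other 8, and a chosen transcript was counted when its held-out value was within 2-fold of its geometric mean in those 8. Between 182 and 230 transcripts were chosen, and 94.35% (testis 2) to 100% (ovary 2) of them were within 2-fold. This window, to either side of a mean, is wider than the rule's own range, and 73.9% (testis 2) to 93.4% (ovary 2) of them met the whole rule with the held-out library added. Among transcripts at the level minimum in the same 8 libraries that did not meet the rule, 65.3% (androgenic gland 2) to 79.5% (ovary 1) were. Size factors came from all 9 libraries throughout. In every held-out library the chosen transcripts were above these others. Each held-out library still had 2 libraries of its own tissue among the 8.

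Holding out a whole tissue gave a smaller margin. With androgenic gland held out, 759 transcripts met the rule in ovary and testis, and 389 (51.25%) had a gland mean within 2-fold of their level there, against 49.0% of 1582 others. Of the 759, 234 were below 0.5 times that level in the gland, 136 above 2 times it, and 5 were listed at 0 there. With ovary held out, 347 of 499 (69.5%) were within 2-fold, against 56.0% of 1618 others. With testis held out, 404 of 591 (68.4%) were, against 63.0% of 1512 others. Evenness across a pair of tissues thus went with a share within 2-fold in the remaining one that was 2.26 percentage points above that of the others with the gland held out, 13.5 with ovary and 5.33 with testis. Transcripts are not replicates, so these shares carry no test. The whole rule across all 9 libraries was met by 158 of the 759, 170 of the 499 and 170 of the 591. The members outside the 158 met the CPM ceiling only through the gland.

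**Figure D4:**
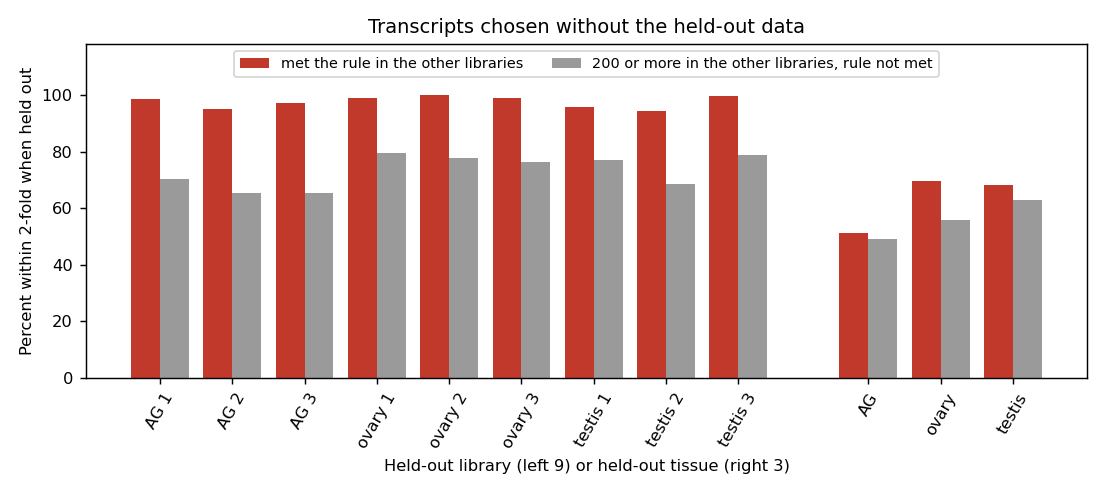
Percent of transcripts whose held-out value was within 2-fold of their mean in the libraries used, for each held-out library (left 9 pairs) and each held-out tissue (right 3 pairs; AG, androgenic gland); red bars are transcripts that met the rule in the libraries used, grey bars those at 200 or more there that did not. Red bars stand at 94.35% or above for single libraries and at 51.25% to 69.5% for whole tissues.

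Differences between tissues were then read from 1 fit across all 17043 transcripts with enough counts, which included all 170 members (the quasi-likelihood test of edgeR, Benjamini-Hochberg adjusted, called at an adjusted p under 0.05). The pairs of tissues share libraries, so the 3 comparisons are not independent. Since the rule used the same counts, the members' counts below are set beside the share of all transcripts called, and nothing is read from them. Of the 170 members 133 were called in no comparison, 27 in 1, 10 in 2 and 0 in all 3. Of all tested transcripts, 21.3% were called in no comparison, 12.9% in 1, 51.3% in 2 and 14.5% in all 3. With a log2 fold change of at least 1 in size also asked, edgeR called 0 members in each comparison. That edgeR call covered 46.1%, 42.9% and 59.5% of all transcripts for ovary versus testis, androgenic gland versus testis and androgenic gland versus ovary. At this size of change DESeq2 also called 0 members, as did edgeR at an unadjusted p under 0.05. The rule keeps a member's tissue means within 2-fold in normalized counts, and their highest ratio was 1.79. These 0 counts are therefore largely set by the rule.

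**Figure D5:**
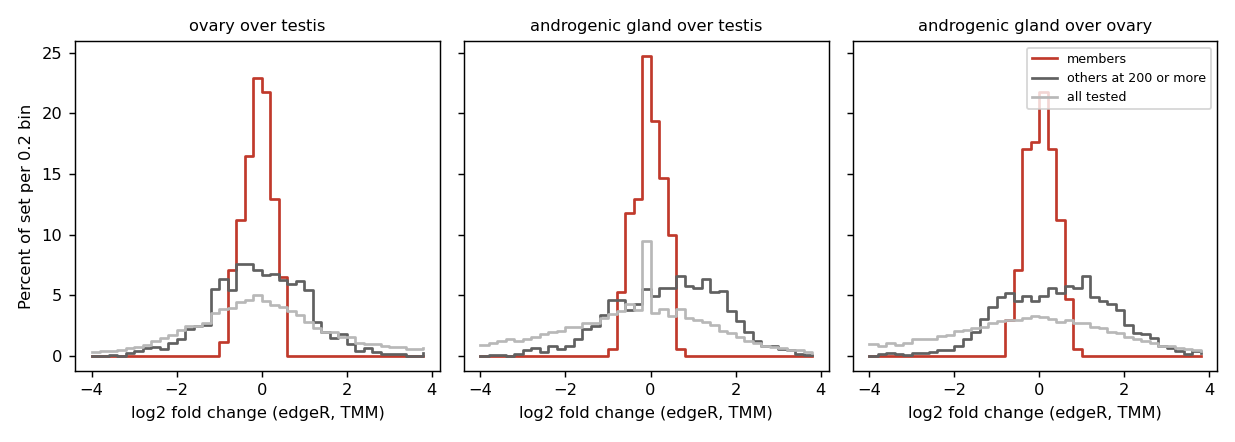
Distribution of log2 fold changes (edgeR, TMM scaling; bins of 0.2, y axis in percent of each set) for the 170 members, the 1555 others at 200 or more in all libraries and all 17043 tested transcripts; values beyond 4 in size are not drawn. Members lie between -0.84 and 0.82 in the 3 comparisons.

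In ovary versus testis, 15 members were called, against 49.9% of all tested transcripts. Of these, 1 was higher and 14 were lower in ovary, against 28.4% and 21.5% of all tested. The split was 5 higher and 11 lower with median-of-ratios size factors in edgeR, 15 and 20 with DESeq2, and 2 and 0 under scaling to library size. At an unadjusted p under 0.05 edgeR counted 28 members, against 56.4% of all tested. The members' log2 fold changes ran from -0.84 to 0.58 with a median of -0.05 (0.03 with median-of-ratios size factors, 0.09 under library size), against 0.08 for all tested transcripts. The libraries did not overlap in 29 members with ovary above and 36 with ovary below, against 37.1% and 26.1% of all tested. The count of 15 was 9 without testis 1, 7 without ovary 1, 4 without ovary 2 and 3 without ovary 3.

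The highest member in this comparison was transcript_HQ_Female_transcript6769/f11p0/2043, with 681.1, 788.8 and 733.6 normalized counts in ovary against 427.9, 559.4 and 405.3 in testis. All ovary libraries were above all testis libraries. The fitted log2 fold change was 0.58, with 0.20 as a rough SE (edgeR, adjusted p = 0.043), and the adjusted p was between 0.0502 and 0.135 without any 1 of the libraries except testis 2 and androgenic gland 3. The second highest, transcript_HQ_Female_transcript863/f2p0/3160, reached 0.55 ± 0.20 and was not called (edgeR, adjusted p = 0.0504). It was called with median-of-ratios size factors in edgeR (adjusted p = 0.0344), under scaling to library size (0.0316), without androgenic gland 3 (0.0466) and by DESeq2 (0.00417). It had 673.8, 794.9 and 716.2 in ovary against 507.1, 501.2 and 399.2 in testis, again without overlap.

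The lowest was transcript_HQ_Male_transcript3990/f24p0/1864, one of the most abundant members, with 3470, 3472 and 3134 normalized counts in ovary against 5597, 5937 and 5496 in testis. The groups were well apart, and the gland lay between them at 4044, 4080 and 3901. The fitted log2 difference was -0.84 ± 0.23 (edgeR, adjusted p = 0.0141). The adjusted p was 0.0582 without ovary 3 and 0.107 under scaling to library size. For transcript_HQ_Female_transcript2729/f3p0/2610 it was also -0.84, ± 0.22 (edgeR, adjusted p = 0.013; 0.0553 without ovary 2 and 0.121 under library size). It averaged 1172 ± 61.2 in ovary and 1973 ± 172.9 in testis (SD, n = 3 each).

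In androgenic gland versus testis, 13 members were called, against 45.8% of all tested transcripts. Of these, 1 was higher and 12 were lower in the gland, against 17.5% and 28.3% of all tested. The split was 15 and 27 with DESeq2, and 0 and 168 under scaling to library size. At an unadjusted p under 0.05 edgeR counted 29 members, against 52.8% of all tested. The members' log2 fold changes ran from -0.84 to 0.68 with a median of -0.04, against -0.28 for all tested and 0.51 for the 1555 others at the level minimum. The libraries did not overlap in 22 members with the gland above and 33 with it below, against 21.3% and 33% of all tested. The count of 13 was 7 without androgenic gland 3, and 3 when only the 6 libraries of these tissues were fitted.

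The groups did not overlap in either of the 2 lowest members. For transcript_HQ_Male_transcript3308/f2p0/2031 the normalized counts were 360.9, 402.5 and 368.7 in androgenic gland against 647.5, 711.7 and 666.8 in testis. This was a log2 difference of -0.84 ± 0.17 (edgeR, adjusted p = 0.004), and ovary lay between at 431.4 to 462.6. For transcript_HQ_Male_transcript963/f2p0/2914 the gland had 939.3, 914.7 and 1075 against 1809, 1535 and 1687 in testis, or -0.78 ± 0.21 on the log2 scale (edgeR, adjusted p = 0.0151; 0.0516 with only the 6 libraries of these tissues).

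At the other end, transcript_HQ_Male_transcript4383/f5p0/1743 had 451.7, 466.6 and 351.2 normalized counts in androgenic gland against 299.7, 248.4 and 240.0 in testis. The log2 difference of 0.68 ± 0.22 (edgeR, adjusted p = 0.0318) was not called without testis 2, testis 3, androgenic gland 1 or androgenic gland 2, at adjusted p of 0.0729 to 0.091. Nor was it called with only the 6 libraries of these tissues (edgeR, adjusted p = 0.0697) or without the filter on low counts (0.0522). Under scaling to library size its log2 fold change was -0.78. For transcript_HQ_Female_transcript17089/f14p0/1275 the value was 0.57 ± 0.22, not called (edgeR, adjusted p = 0.0589), and -0.88 under scaling to library size. It was called as higher in the gland with median-of-ratios size factors in edgeR (adjusted p = 0.0464), without androgenic gland 3 (0.0474) and by DESeq2 (0.0142).

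In androgenic gland versus ovary, 19 members were called, against 63.2% of all tested transcripts. Of these, 10 were higher and 9 lower in the gland, against 21.9% and 41.3% of all tested. The split was 8 higher and 13 lower with median-of-ratios size factors in edgeR, 17 and 28 with DESeq2, and 0 and 170 under scaling to library size. At an unadjusted p under 0.05 edgeR counted 31 members, against 66.8% of all tested. The members' log2 fold changes ran from -0.67 to 0.82 with a median of 0.05 (-0.01 with median-of-ratios size factors, -1.56 under library size), against -0.65 for all tested and 0.47 for the 1555 others. The libraries did not overlap in 28 members with the gland above and 42 with it below, against 24.2% and 48.3% of all tested. The count of 19 was 11 without androgenic gland 1, 12 without androgenic gland 3, 8 without ovary 1, and 6 without ovary 2 or ovary 3.

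The highest was transcript_HQ_Male_transcript2839/f14p0/2134, with 1177, 1171 and 1097 normalized counts in androgenic gland against 675.1, 732.9 and 662.3 in ovary. The groups did not overlap, with a log2 difference of 0.82 ± 0.20 (edgeR, adjusted p = 0.00756). The next, transcript_HQ_Female_transcript1158/f2p0/3033, averaged 690.2 ± 79.7 in androgenic gland and 430.2 ± 20.9 in ovary (SD, n = 3 each), a log2 difference of 0.76 ± 0.17 (edgeR, adjusted p = 0.00449). Both were lower in the gland under scaling to library size, at -0.79 and -0.86.

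The lowest were transcript_HQ_Female_transcript21817/f445p0/858 and transcript_HQ_Male_transcript4885/f7p0/1688, both at a log2 fold change of -0.67. The first had 392.9, 385.3 and 363.2 normalized counts in androgenic gland against 703.5, 582.1 and 650.1 in ovary (edgeR, adjusted p = 0.0173; 0.0544 without ovary 1). Its testis values of 514.7 to 693.9 overlapped those of ovary. The second had 1266, 974.9 and 1008 in androgenic gland against 1898, 1815 and 1808 in ovary (edgeR, adjusted p = 0.0289). It was not called without androgenic gland 2, androgenic gland 3 or any 1 ovary library, at adjusted p of 0.0593 to 0.0727.

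Other features of the members were read from their IDs and lengths, which the rule did not use directly. Every ID carries the word Female or Male, and 84 members (49.4%) carried Female and 86 Male. The share with Female was 46.5% among the 1555 others at the level minimum and 69.5% among all tested. The members thus resembled the widely present transcripts in this and stood away from the whole table. In ovary versus testis the members with the female label had a median log2 fold change of -0.03 and those with the male label -0.06, while the medians of all tested transcripts with these labels were 0.52 and -0.76. In androgenic gland versus ovary the members' medians were 0.14 and -0.09, against -1.19 and 0.28 for all tested. The narrow range of the members limits these medians by construction.

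The members were long transcripts by the measure of the table. The level minimum was set on counts not divided by length, which longer transcripts meet more readily. The length of the members beside all tested is therefore partly built into the rule, and the 1555 others are the nearer comparison. The shortest had 336 bases, the longest 5274, and the median was 2224, against 2122 for the 1555 others at the level minimum and 1649 for all tested. Transcripts of 2000 bases or longer made up 58.8% of members, 54.4% of the others and 35.0% of all tested, and those under 1000 bases 8.24%, 11.6% and 20.4%. Only 1 member carried the LQ mark in its ID, as did 7 of the others, and all remaining members carried HQ. The number after the letter f in the ID, which counts full-length reads in the common naming of long-read isoform clusters but is not defined in the files, had a median of 4 in members, 4 in the others and 2 in all tested.

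Members differed from the other widely present transcripts in how their counts were made up, mainly at mean normalized counts from 400 to 1600. Counting tools that divide a read between similar transcripts give counts with decimals. Here 86 of 170 members (50.6%) had whole counts, within 0.005, in all 9 libraries. This was so for 30.0% of the 1555 others and 33.6% of all tested. Seen the other way, 15.6% of the transcripts with whole counts at the level minimum were members, against 7.16% of those with decimals. Level moved with this: the members' mean normalized count had a median of 533.0 with whole counts and 708.5 with decimals. Within bands of mean level the share with whole counts was 59.6% of members against 55.7% of others below 400, 51.7% against 32.8% from 400 to 800, 48.0% against 27.5% from 800 to 1600, and 26.7% of only 15 members against 25.2% above 1600. The part of read sharing in the range of a transcript was not tested.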

How the data were processed

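RNA was measured in 9 libraries, 3 each of androgenic gland, ovary and testis, from a directional Illumina kit per the labels' protocols. Estimated counts of each transcript, and its length in bases, were deposited by the authors in 1 table. Bowtie 0.12.2, DESeq 1.10.1 and mm8, which is a mouse build, are named without roles, per the submitters' processing notes. The counting tool and strand setting were not given in the sources used here.

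Members and tests were chosen with earlier results of these data known. Size factors were medians of ratios to the geometric mean. For tests, expected counts were rounded, filtered with filterByExpr (minimum count 10, minimum total 15), scaled with TMM and fitted with a mean per tissue in edgeR 4.0.16 (R 4.3.3) with a prior count of 1. DESeq2 1.42.0 was an alternative. The value after ± beside a log2 fold change is its size over the square root of F, a rough SE. The fit was also run on simulated counts in which a small set of transcripts was changed, in ovary alone. That run does not bear on differences between tissues as broad as those here. Other tools were Python 3.11.15 and pandas 2.3.3. Named members were those at the ends of ratio, minimum level, level per kilobase and log2 fold change, 2 at each end, with ties going to the first in the file, and the nearest pair past the ratio limit; the nearest pair under the level minimum was added after values were seen.

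Same-numbered libraries of androgenic gland and testis moved together about their tissue means (r of 0.289 to 0.417 over 17043 transcripts). The replicate number was therefore used as a block in an alternative fit. That fit held all 9 libraries, so it also grouped each ovary library with the gland and testis libraries of its number. No label states a pairing of libraries.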

Additional observations from a re-analysis of the deposited data

How the results depend on the processing

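The count of 170 transcripts was 171 under TMM scaling (145 shared) and 173 with size factors from transcripts with at least 10 counts everywhere (134 shared). It was 60 under library size alone, 21 and 601 at ratio limits of 1.5 and 3, 92 at a level minimum of 400, and 246 at 100. It was 591, 759 and 499 without testis, androgenic gland or ovary, and 182 to 230 without any 1 library. The count of members called was 2, 168 and 170 under library size alone for ovary versus testis, androgenic gland versus testis and androgenic gland versus ovary, against 45.5%, 54.5% and 70.7% of all tested transcripts. DESeq2 called 35, 42 and 45 members, against 46.4%, 41.5% and 55.8% of all 21071 transcripts, since it was run without the filter on low counts. Transcripts without an adjusted p count in that base, so these shares do not compare directly with those of edgeR. A log2 fold change of at least 1 in size left 0 members in each comparison, which the 2-fold limit largely sets. With only the 6 libraries compared, androgenic gland versus testis gave 3. Without any 1 library the counts ran from 3 to 17, 7 to 12 and 6 to 23. With the replicate block, which also took in ovary, they were 10, 9 and 15. Over all tested transcripts, only same-numbered libraries of androgenic gland and testis moved together about their tissue means. Same-numbered libraries reached r of -0.14 to 0.00855 for ovary with testis and -0.139 to 0.00298 for androgenic gland with ovary. The counts of 10 and 15 thus rest on a block whose ovary numbers showed no such link. Of the named members called, transcript_HQ_Female_transcript6769/f11p0/2043 was not called with the block (edgeR, adjusted p = 0.0584), and the block changed no other call among them.

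Library size alone shifted the median over all transcripts, as a log2 fold change, from 0.08 to 0.23, from -0.28 to -1.52 and from -0.65 to -2.18 in the same order, and the members' medians to 0.09, -1.50 and -1.56. It turned 4 named log2 fold changes around: -0.78 for transcript_HQ_Male_transcript4383/f5p0/1743, -0.88 for transcript_HQ_Female_transcript17089/f14p0/1275, -0.79 for transcript_HQ_Male_transcript2839/f14p0/2134 and -0.86 for transcript_HQ_Female_transcript1158/f2p0/3033. The members' median level in ovary over testis was 0.938, or 0.883 under TMM and 0.992 under library size. In androgenic gland over testis and over ovary it was 0.956 and 1.02, or 0.353 and 0.356 under library size. The share within 2-fold in a held-out library was 97.5% over all 9, at 94.35% to 100% for each, and in a held-out tissue 61.6% over all 3, at 68.4%, 51.25% and 69.5% for testis, androgenic gland and ovary. Counting error limits the lowest members, whose CV from counting reached 11.4% in androgenic gland 2.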

Other observations

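Within the 170 members, the deviations of same-numbered androgenic gland and testis libraries from their tissue means correlated at 0.108, 0.498 and 0.287 for numbers 1 to 3 (Pearson, log2 normalized counts, across 170 transcripts, which are not replicates). For ovary and testis the values were 0.191, 0.0735 and 0.189, and for androgenic gland and ovary -0.00692, 0.1061 and -0.1055. Across members, log2 normalized counts correlated at 0.923 to 0.984 between libraries of the same tissue and at 0.869 to 0.922 between tissues. Members were chosen to stay within 2-fold over all 9 libraries while their mean levels differ far more, so high values here are set by the rule.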
